A study of Mus musculus with 2 samples.

Results

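The genes described here are the mouse zinc finger protein genes whose symbol starts with Zfp and a number, as far as a list of E2F1 peaks from mouse hepatocytes names them. They were taken by symbol alone: 155 of the 6887 rows of the list, each a pair of a peak and a gene, carry such a symbol. These rows hold 127 genes and 141 of the 5667 peaks. A total of 13 peaks name 2 of these genes, and 1 peak is entered for Zfp708 on 2 rows. The rule uses names alone and no measured value.

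The peaks come from E2F1 chromatin immunoprecipitation followed by sequencing (ChIP-seq), which recovers DNA bound to a protein with an antibody. The ChIP group is 1 record of chromatin pulled down with the anti-E2F1 antibody c-20, and it is set against 1 record of input chromatin taken without antibody. Both are primary hepatocytes, the main cells of the liver, of strain C57Bl6J, and both were infected with the adenovirus Ad-E2F1 and harvested 36 h later. E2F1 was therefore supplied in excess by a virus in both groups, and cells without the vector were not analysed here. The series text speaks of 2 replicates, each joining 2 ChIPs, but the list is not split by replicate, so no value below has a replicate error. The depth is unknown, since no library size was found in the labels or the list.

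E2F1 is a transcription factor best known for switching on genes of DNA replication and cell cycle entry. The numbered Zfp genes form one of the largest gene families of the mouse. Most code for proteins with rows of C2H2 fingers, short loops held by zinc that read DNA letters. Many also carry a KRAB domain, which recruits the co-repressor TRIM28 and with it enzymes that silence chromatin, often over retroviral repeats. The family grew by tandem duplication, so its genes often sit side by side. The name is no proof of this class: Zfp36 and Zfp36l2, for example, code for CCCH finger proteins that bind AU-rich messenger RNAs and speed their decay.

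A promoter peak was found at 63 numbered Zfp genes of the reference table. Here a peak counts as a promoter peak where no more than 1000 bp separate its summit from a transcription start site (TSS). Distances printed here run to the edge of the 301 bp window around the summit, for which the same limit is 850 bp. Of 397 protein-coding genes of the mouse reference table with a Zfp number, 63 had a promoter peak (15.9%, exact 95% interval 12.4% to 19.8%), against 13.1% of all 21900 protein-coding genes. That background lies within the interval. A further 64 of these genes had listed peaks elsewhere only, and 270 had no listed peak. Any listed peak was found at 127 of the 397 (32.0%, interval 27.4% to 36.8%), against 24.7% of all protein-coding genes, which lies below the interval. Of the genes with any peak, 49.6% had one at the promoter, against 53.0% of all such protein-coding genes. The intervals cover counting over genes and peaks only, and absence from the list does not show that a gene was unbound. The genes counted here and the members by name differ slightly. Zfp267 and Zfp607b are listed under other symbols and count here, while the members entered as Zfp498 and Zfp828 have other names in the reference table and do not.

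By name, too, 63 members had a promoter peak, and those with E2F letters in the promoter are shown first. Promoter sequences of 300 bases, 250 before to 50 after the start, were taken from RefSeq (GRCm38.p6) on the gene's own strand, and 49 of the 63 members matched an entry. They were searched on both strands for the E2F letters TTTCCCGC, TTTGGCGC, TTTGCCGC and TTTCGCGC. These letters stood in 8 of the 49 (16.3%, interval 7.32% to 29.7%), against 7 of 281 numbered Zfp genes without a promoter peak (2.49%). They stood in 9.31% of other genes with a promoter peak and in 2.605% of all 27025 genes of the table. Only 77.8% of the 63 members had an entry, under the 80% set for such a check, so the comparison is void and the share describes the 49 alone. The 8 stretches follow in order of peak fold, with the matched letters in capitals and 25 bases on each side where the promoter allows.
Zfp687: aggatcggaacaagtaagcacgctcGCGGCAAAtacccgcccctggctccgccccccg
Zfp213: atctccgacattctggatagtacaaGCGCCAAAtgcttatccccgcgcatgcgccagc
Zfp444: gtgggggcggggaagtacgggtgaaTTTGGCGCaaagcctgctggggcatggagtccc
Zfp688: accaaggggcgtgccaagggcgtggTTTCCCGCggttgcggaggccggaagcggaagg
Zfp414: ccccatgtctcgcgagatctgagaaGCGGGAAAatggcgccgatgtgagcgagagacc
Zfp653: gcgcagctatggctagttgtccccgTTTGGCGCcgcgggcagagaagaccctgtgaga
Zfp644: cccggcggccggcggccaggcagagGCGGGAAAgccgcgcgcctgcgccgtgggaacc
Zfp760: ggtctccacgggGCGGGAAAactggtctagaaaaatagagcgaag

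The matched letters began 36 bp upstream of the start in Zfp444, 40 bp in Zfp688, 64 bp in Zfp213 and 69 bp in Zfp687. In Zfp653 they began 82 bp upstream, in Zfp644 167 bp and in Zfp760 238 bp. In Zfp414 they lay downstream, 13 bp from the start. No mm9 genome was used here, so whether a peak covers these very bases was not checked. For Zfp687 the 301 bp window around the summit lies 827 bp upstream of the TSS. If the promoter entry uses the same start, that window does not reach the letters 69 bp upstream. The whole called peak of Zfp687 is longer, at 2738 bp, and its reach was not checked. The promoters they come from are, in GRCm38.p6, chr3:95015189-95015488 (minus strand, Zfp687), chr17:23564177-23564476 (minus, Zfp213), chr7:6172263-6172562 (plus, Zfp444) and chr7:127421985-127422284 (minus, Zfp688). The others are chr17:33628842-33629141 (plus, Zfp414), chr9:22071327-22071626 (minus, Zfp653), chr5:106696476-106696775 (minus, Zfp644) and chr17:21707491-21707790 (plus, Zfp760). Zfp687 has more than 1 promoter entry, and the one given holds the match.

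The strongest promoter peaks after leaving out Zfp687 were at Zfp689, Zfp472 and Zfp382, and none of these carries the E2F letters above. Their promoters are printed whole, with 3 shorter sets of letters in capitals wherever either strand holds them. The first set is GGCGC, the core of many E2F sites. The second set is GCGGGA, and for the third the search used GGCGGG, which is also part of a GC box. They lie at chr7:127449109-127449408 (minus strand, Zfp689), chr17:32965581-32965880 (plus strand, Zfp472) and chr7:30121682-30121981 (plus strand, Zfp382), all in GRCm38.p6.
Zfp689: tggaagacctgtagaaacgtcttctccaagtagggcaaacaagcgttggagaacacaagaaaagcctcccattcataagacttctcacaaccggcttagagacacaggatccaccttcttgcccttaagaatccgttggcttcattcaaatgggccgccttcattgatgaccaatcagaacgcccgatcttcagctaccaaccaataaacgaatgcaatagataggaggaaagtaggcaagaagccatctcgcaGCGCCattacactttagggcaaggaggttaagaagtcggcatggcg
Zfp472: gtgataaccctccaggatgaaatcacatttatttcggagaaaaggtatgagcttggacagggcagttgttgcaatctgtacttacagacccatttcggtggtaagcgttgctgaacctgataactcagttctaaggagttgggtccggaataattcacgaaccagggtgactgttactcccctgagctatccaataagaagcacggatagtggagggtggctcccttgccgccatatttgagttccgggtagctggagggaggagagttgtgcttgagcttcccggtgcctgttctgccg
Zfp382: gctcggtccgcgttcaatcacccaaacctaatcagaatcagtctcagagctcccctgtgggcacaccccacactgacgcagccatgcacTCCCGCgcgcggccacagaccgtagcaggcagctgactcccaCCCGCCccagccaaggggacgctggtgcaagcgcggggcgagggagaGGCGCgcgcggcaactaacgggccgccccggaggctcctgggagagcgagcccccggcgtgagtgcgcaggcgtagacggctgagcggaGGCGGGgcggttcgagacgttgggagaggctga

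The Zfp689 promoter holds 1 match to the shorter letters and the Zfp382 promoter 4, while Zfp472 holds 0. CpG pairs number 12 in Zfp689, 10 in Zfp472 and 32 in Zfp382. The shorter letters are common: they stood in 46 of the 49 members with an entry (93.9%) and in 73.3% of numbered Zfp genes without a promoter peak. They stood in 93.2% of other genes with a promoter peak and in 51.98% of all 27025 genes of the table. Here too only 77.8% of the 63 members had an entry, so the comparison is void and the share describes the 49 alone. A match is a description of letters and not a site of binding.

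Peaks at promoters were set against peaks at other locations. Of the 141 peaks, 62 lay at the promoter of a numbered Zfp gene (44.0%, interval 35.6% to 52.6%), and counting the promoter of any gene named for the peak there were 66 (46.8%). In the 5526 other peaks of the list 2546 lay at a promoter (46.1%). The 75 peaks at the promoter of no gene were divided by place. Of the 141, 35 lay inside the Zfp gene (24.8%, interval 17.9% to 32.8%), against 34.6% of the other peaks. Upstream lay 27 (19.1%, interval 13.0% to 26.6%), against 10.1% in the rest of the list. Past the 3' end or in the 3' untranslated region lay 13 (9.22%, interval 5.001% to 15.25%), against 9.27%. The rest of the list lies outside the interval for the upstream class and for the class inside the gene, and no test of these differences was run.

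Fold over input is the authors' ratio of ChIP tags to the tags their peak caller expects from input. The 62 promoter peaks had a median fold of 6.09 (quartiles 4.49 and 8.34, range 3.26 to 16.01, interval of the median 5.24 to 7.04). The other 2546 promoter peaks of the list had a median of 6.495, with a range up to 70.6. The median number of tags was 167.5 in the 62 and 169 in the rest. The 79 peaks away from Zfp promoters, 4 of which lie at the promoter of another gene, had a median fold of 4.21 (quartiles 3.43 and 6.72, range 2.68 to 16.63, interval 3.8 to 4.69). Without those 4 the median was 4.19 over 75 peaks, against 4.07 in the 2980 non-promoter peaks of the rest of the list. Within the Zfp genes the promoter median of 6.09 was above the 4.21 of other places, and the ranges overlapped almost fully. This order turned when only stronger peaks were kept, but the intervals overlapped. With the 2833 peaks of lowest p, 41 promoter peaks had a median of 7.67 (interval 6.12 to 8.45). The 30 elsewhere had 8.185 (interval 5.33 to 9.7). With the 1416 peaks of highest fold, 22 promoter peaks had 8.595 (interval 8.24 to 9.66). The 16 elsewhere had 10.27 (interval 9.09 to 14.68). Both filters cut on strength itself, so these medians cannot decide the order. The same medians were not taken for the rest of the list.

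Very strong promoter peaks were few. A fold of at least 10 was reached by 4 of the 62 promoter peaks (6.45%, interval 1.79% to 15.7%), against 21.9% of all 2612 promoter peaks of the list. Away from Zfp promoters it was reached by 8 of 79 (10.1%), 1 of which lies at the promoter of Vrk3. Of the 75 at the promoter of no gene it was reached by 7 (9.33%, interval 3.835% to 18.3%), against 4.91% of all 3055 non-promoter peaks. The background lies outside the interval for promoter peaks, and within it, near its lower end, for the others. At a fold of at least 8 the promoter shares were 29.0% in Zfp genes (interval 18.2% to 41.95%) and 34.1% in the whole list, and at a fold of at least 15 they were 1.61% (interval 0.0408% to 8.66%) and 8.31%. At both of these limits the whole list lies within the interval of the Zfp genes, so the gap at 10 depends on where the limit is set. For peaks at the promoter of no gene the shares at 8 were 18.7% in Zfp genes (interval 10.6% to 29.3%) and 9.20% in the whole list, which lies below that interval. At 15 they were 2.667% (interval 0.3246% to 9.303%) and 1.604%. For these peaks the whole list thus lies within the interval at 10 and at 15, and the gap at 8 also depends on the limit.

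**Figure D1:**
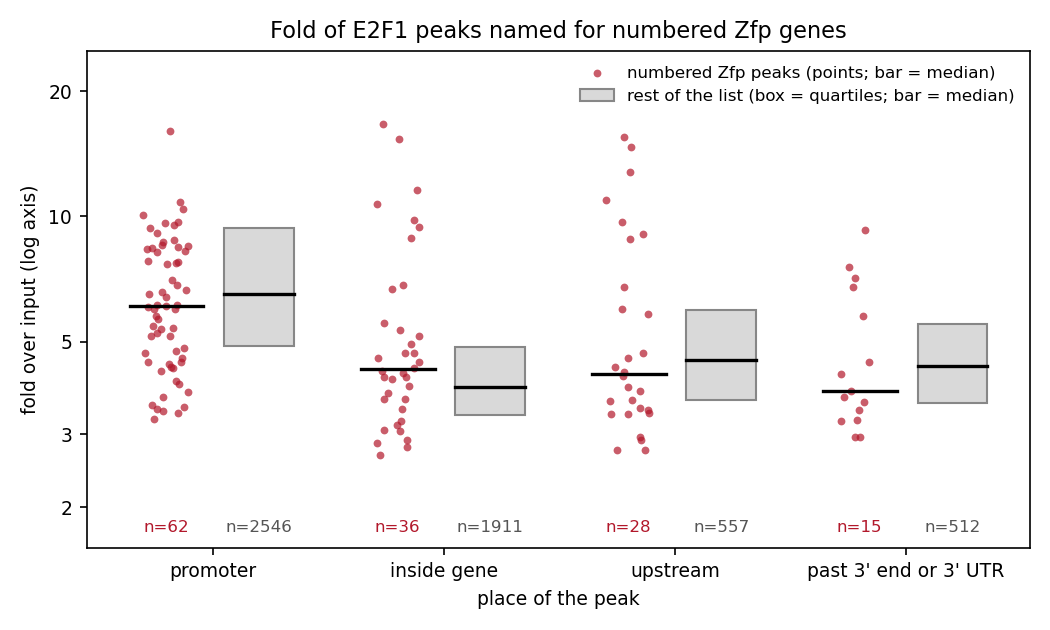
Fold over input (log axis) of the 141 peaks named for numbered Zfp genes, by place, beside the rest of the list. Points are single peaks, boxes span the quartiles of the rest and bars are medians: 6.09 in Zfp promoter peaks and 6.495 in the other promoter peaks, with 4 Zfp points at a fold of at least 10 at Zfp promoters and 8 elsewhere, 1 of these at the promoter of another gene.

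Zfp689 had the strongest promoter peak of the family, with a fold of 16.01, 507 tags and a false discovery rate of 0.16%. The 301 bp window around its summit, on chromosome 7 from 134592635 to 134592935 (mm9), holds the TSS, and the peak stood at rank 220 of the whole list by fold. Zfp687, whose human counterpart works with the chromatin reader ZMYND8, followed at 10.81-fold with 256 tags, in the window from 94820198 to 94820498 of chromosome 3. Its window lies 827 bp upstream of the TSS, the farthest of all 63, and a second peak 2942 bp upstream had a fold of 4.57. Zfp472 had 234 tags and a fold of 10.43, in the window from 33102551 to 33102851 of chromosome 17. Zfp382, known in human cells as a KRAB repressor, had 10.09 with 254 tags, in the window from 30906639 to 30906939 of chromosome 7. These are the 4 promoter peaks over a fold of 10, and Zfp689 stands well above the other 3.

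The next 6 lay close together in fold. Zfp213 had 9.71 with 293 tags. Zfp511 had 9.66 with 95 tags, at a promoter it shares with Tubgcp2, a subunit of the ring that nucleates microtubules. Zfp90 had 9.54 and Zfp101 9.36. Zfp36l2, one of the mRNA decay factors named above, had 9.1 with 212 tags at 600 bp upstream and a second peak 72 bp past its 3' end with 4.48 and 467 tags. Zfp160 had 8.77. At the low end stood Zfp740 with a fold of 3.26 and 176 tags, and its rank of 5027 shows how near the bottom of the list a promoter peak could be.

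Some members code for proteins with a known task outside the KRAB class. Zfp622, whose yeast relative helps the large ribosomal subunit mature, had a promoter fold of 8.45. Zfp451, a SUMO ligase, had 8.37 at its promoter, 3.92 inside the gene and 3.69 past its end. Zfp523, the mouse form of human ZNF76, had 7.82, and Zfp219, a partner of SOX9, had 7.79. Zfp644, a partner of the histone methyltransferase G9a, had 6.11, and Zfp335, part of a histone methyltransferase complex, had 6.0. The folds were 4.56 at Zfp148, a GC-box binding factor, 4.47 at the nucleolar Zfp330 and 4.32 at Zfp277, a Polycomb partner. Zfp828, now called Champ1, a protein of chromosome alignment in mitosis, had 3.96. Zfp36, the gene of tristetraprolin, had 3.45 at the promoter with 221 tags and 4.71 inside the gene with 286. All but Zfp622, Zfp451, Zfp523, Zfp219 and Zfp644 lay under the family median of 6.09.

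Promoter windows lay on both sides of the start. Counting each gene once, the window held the TSS in 30 of the 63 genes. It lay upstream in 15, by at most 827 bp, and downstream in 18, by at most 511 bp at Zfp800. By peaks, 29 of the 62 windows held a TSS (46.8%), against 53.8% of the other promoter peaks. Near the limit of 850 bp from the window edge, Zfp687 at 827 bp and Zfp950 at 776 bp (fold 4.42) fell inside it. Zfp46, with a fold of 8.89 at 870 bp into the gene, Zfp114, with 8.81 at 1021 bp upstream, and Zfp703, with 6.76 at 1157 bp upstream, fell just outside. Zfp408, with 9.09 at 1292 bp upstream, did too.

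**Figure D2:**
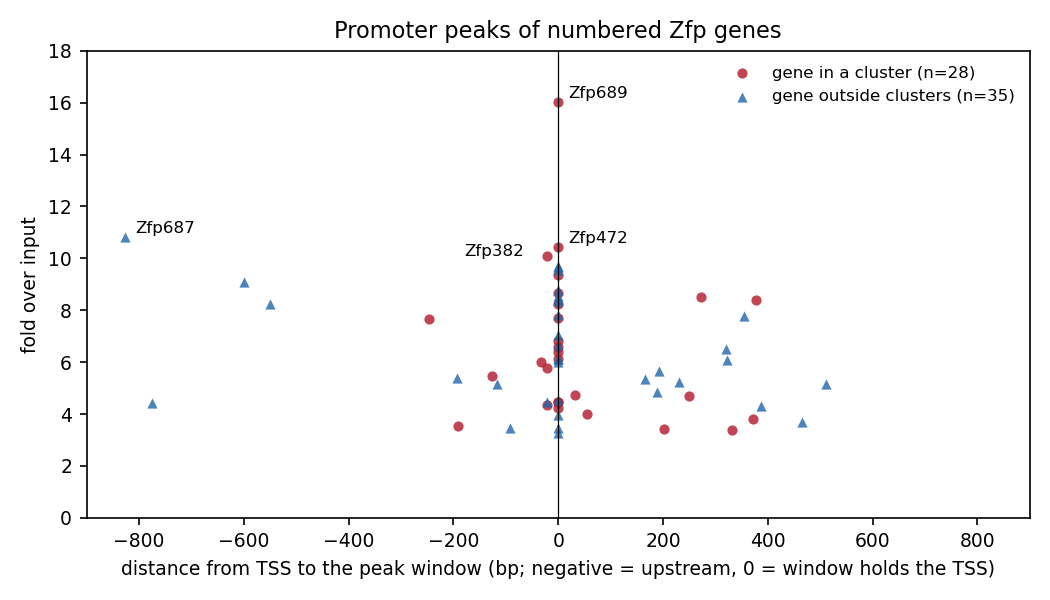
Fold over input of the 63 promoter entries against the distance in bp from the TSS to the peak window, negative upstream, with genes in clusters as circles and genes outside them as triangles. Of these, 30 sit at 0, and the 4 named genes are those with a fold of at least 10. The members include Zfp828, which the counts by reference gene leave out.

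A promoter peak was shared with another gene in 8 of the 62 cases (12.9%), against 12.6% of the other promoter peaks. Partners included Bcs1l at Zfp142 (fold 7.04), which codes for an assembly factor of the respiratory chain, and Atp13a1 at Zfp866 (8.38). Fiz1, itself a zinc finger gene, shared the peak of Zfp524 (7.67), Dock4 that of Zfp277, and Gm5113 that of Zfp146 (3.79). In a single case both partners were members: Zfp758 and Zfp944 had 1 peak of 206 tags and a fold of 4.46. Its window, from 22498294 to 22498594 of chromosome 17, holds both starts. For these pairs the list cannot say which gene the peak belongs to.

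Away from promoters the strongest peak of the family exceeded Zfp689. It lay 3074 bp inside Zfp111, on chromosome 7 from 24993088 to 24993388, with a fold of 16.63 and 248 tags, and is also named for Zfp109, past whose end it lies. Zfp324 had a fold of 15.49 with 282 tags 16023 bp upstream of its TSS, against 3.38 with 101 tags at its own promoter. Zfp628 showed the same order, with 12.76 at 14998 bp upstream and 5.36 at the promoter, and so did Zfp13, with 10.71 at 6627 bp inside the gene and 4.83 at the promoter. Zfp872 had 14.68 with 114 tags at 8792 bp upstream. Over all 11 members with a peak at the promoter and another elsewhere, the promoter peak was the stronger in 6 and the other in 5.

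The other 3 peaks of fold 10 or more lay in varied places. Zfp473, whose product takes part in trimming histone mRNA ends, had 15.32 at 2532 bp inside the gene. This peak also lies at the promoter of Vrk3, a kinase gene, and Vrk3 is the closer of the pair. Zfp385b had 11.57 deep in the gene at 298152 bp from its TSS and a neighbour of 3.22 at 300729 bp. Zfp541, a factor of male meiosis, had 10.93 at 18769 bp upstream. Besides the Zfp473 peak, 3 others lay at the promoter of a gene outside the family and at none of its own: those of Zfp335 with Pcif1 (7.13), Zfp775 with Repin1 (4.7) and Zfp770 with Aqr (2.95). In 14 of the 141 peaks the closest gene was not a numbered Zfp gene at all.

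Peaks inside genes reached far from the start. Over 39 such entries the distance to the TSS had a median of 10808 bp, from 870 bp at Zfp46 to 315696 bp at Zfp407, and 11 lay beyond 20000 bp. Zfp407 carried 3 intragenic peaks with folds of 6.68, 3.65 and 3.44. Zfp618 had 9.42 at 40012 bp and 6.83 at 33660 bp, and Zfp704 had 5.15 at 63809 bp and 4.26 at 81856 bp. Zfp386 had 9.83 at 5123 bp. Zfp804a, whose human counterpart is a risk gene for schizophrenia, had 3.64 at 5139 bp. Zfp809, which silences murine leukaemia virus by binding its primer site, had 3.16 at 3401 bp, a peak also named for Zfp599. Zfp445, a guardian of imprinted marks, had 4.19 with 352 tags 2672 bp past its end. Apart from Zfp618 and Zfp386 these folds stayed under 7.

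Of the 127 genes, 103 had 1 listed peak, 21 had 2 and 3 had 3. Those with 3 were Zfp407, Zfp451 and Zfp775, the last with 4.7 and 3.35 upstream and 4.07 inside the gene. Zfp239 had the most tags of any member peak, 704, at a fold of 9.26 and a false discovery rate of 0, lying 7082 bp past its end. Zfp217, whose human counterpart is amplified in breast cancer, had 6.78 past its end and 4.32 inside. Zfp932 had 7.56 and 5.76, both past its end. Zfp869 had 9.7 at 6178 bp upstream and 3.89 at 19799 bp. Zfp850 had 4.22 and 3.47, both upstream, and Zfp59 had 4.35 upstream and 3.07 past its end. Zfp26 had 3.76 inside and 3.61 upstream, and Zfp46 had 4.95 beside its peak of 8.89. Zfp335 and Zfp81 had a promoter peak each, of 6.0 and 6.39, with a second of 7.13 and of 4.11. Zfp709 had 4.75 past its end, a peak at the promoter of Zfp617, and 2.68 inside. Zfp760 had a second peak of 3.06 past its end, also named for Zfp229. Zfp599 had 5.47 at its promoter beside the peak in Zfp809.

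The next comparison asked whether genes in clusters differ from the other numbered Zfp genes, which include neighbouring pairs. A cluster is a run of at least 3 numbered Zfp genes in the gene order of GRCm38.p6, with at most 3 other protein-coding genes between neighbours. There were 33 clusters of 3 to 23 genes, with 208 genes in all. Of these, 29 had a promoter peak (13.9%, interval 9.54% to 19.4%), against 34 of 189 genes outside clusters (17.99%, interval 12.8% to 24.2%). The intervals overlap widely, and the background of 13.1% lies in both. The order of these shares depended on the cluster rule. It was 16.5% in clusters and 14.9% outside with at most 10 other genes between neighbours, and 15.89% and 15.85% with clusters of at least 5 genes. The other rules tried kept the lower share in clusters. With no other gene between neighbours it was 13.8% in clusters and 17.2% outside. With clusters of at least 2 genes the shares were 14.8% and 17.7%, and with zinc finger genes of several names 14.6% and 17.3%. The peaks were about as strong in both, with a median fold of 6.255 over 28 peaks in clusters and 6.09 over 34 outside, counting Zfp607b and leaving out Zfp828. Median tags were 195 (interval 169 to 230) in clusters and 133 (interval 112 to 176) outside.

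In 17 of the 33 clusters at least 1 gene had a promoter peak, in 9 of them 2 or more did, and 10 clusters with 48 genes had no listed peak of any kind. No such count was made for runs of other genes of like length, so these counts only describe the clusters. By gene, the share with a promoter peak in clusters, 13.9%, lay near the 13.1% of all protein-coding genes. The 5 clusters of 10 or more genes held 8 promoter genes among 84 (9.52%, interval 4.202% to 17.9%), and the 28 smaller ones 21 among 124 (16.9%, interval 10.8% to 24.7%). The largest cluster, 23 genes from Zfp712 to Zfp273 on chromosome 13, had 1 gene with a promoter peak. The 16 genes from Zfp990 to Zfp933 on chromosome 4 had no listed peak. By contrast 4 of 20 genes from Zfp677 to Zfp40 on chromosome 17 had one.

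Close copies are a limit here, because reads from near-identical promoters may be placed at none or at the wrong one, and no label or header says how such reads were treated. Among clustered genes with a promoter entry, 51 of 181 (28.2%) shared at least 1 word of 36 bases with the promoter of another gene. Sharing was found in 2 of 24 with a promoter peak (8.33%), in 5 of 30 with another listed peak only (16.7%) and in 44 of 127 with no listed peak (34.6%). In the chromosome 4 cluster without peaks, 9 of 12 promoters with an entry shared a word, and in the largest cluster 10 of 20 did. Among the 130 clustered genes whose promoter shared no word, 22 had a promoter peak (16.9%, interval 10.9% to 24.5%), and among the 51 that shared one, 2 did (3.92%, interval 0.4785% to 13.5%). Under 80% of genes outside clusters and of all protein-coding genes had an entry (79.4% and 79.9%), so a background for word sharing is void and not given. The part of shared sequence in the result was not tested.

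**Figure D3:**
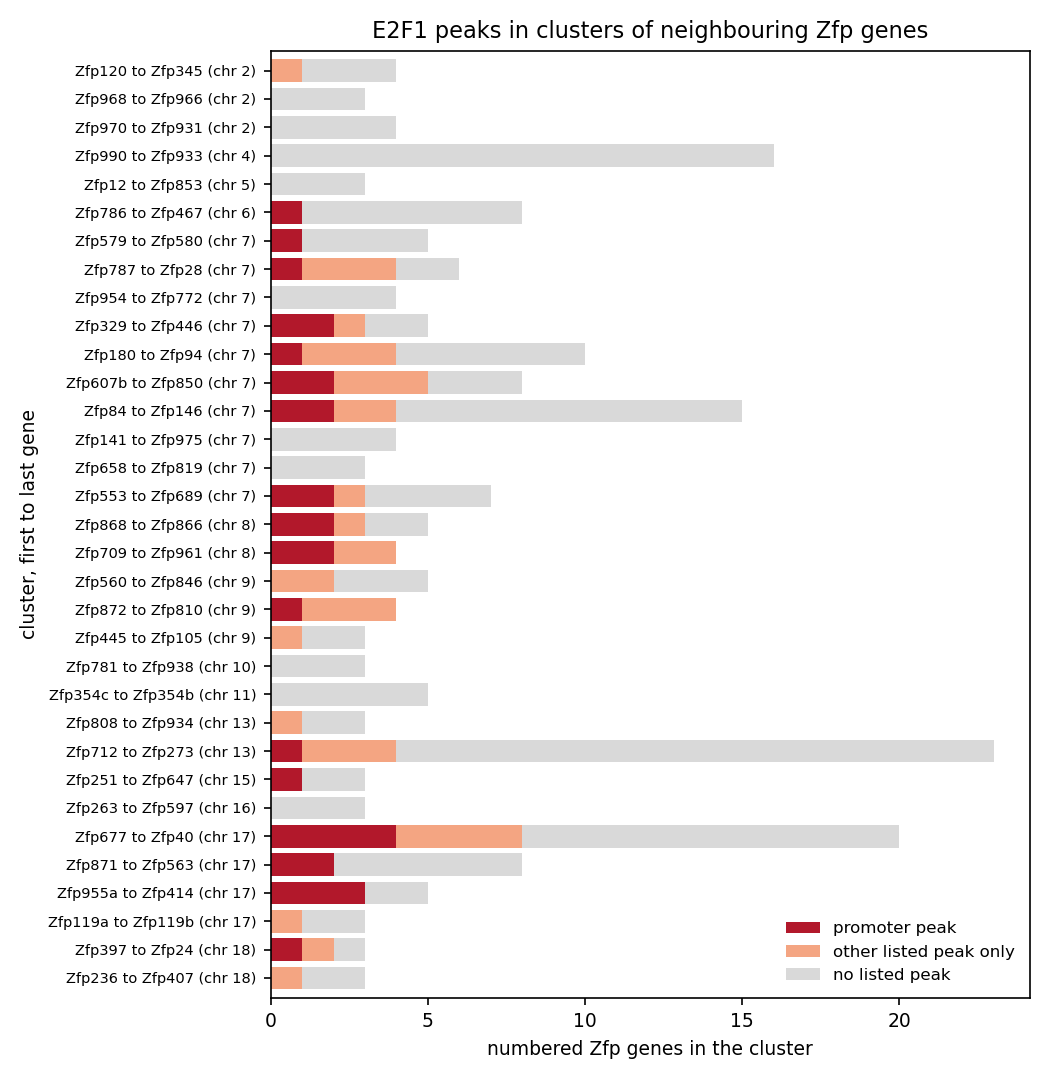
Number of numbered Zfp genes in each of the 33 clusters, from first to last gene with its chromosome, split into genes with a promoter peak, with another listed peak only and with no listed peak. The 23 genes of the chromosome 13 cluster hold 1 promoter peak and the 16 of the chromosome 4 cluster none.

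The cluster with the most promoter genes was the one from Zfp677 to Zfp40. Its folds were 5.99 at Zfp760 with 230 tags, 4.46 at the shared peak of Zfp758 and Zfp944, and 3.41 at Zfp40 with 256 tags. Another 4 of its genes had peaks elsewhere only, at 3.24 for Zfp948, 3.06 for Zfp229, 2.79 for Zfp945 and 2.75 for Zfp53. Its promoter peaks all lie under the family's promoter median of 6.09. The peaks elsewhere lie under 4.21, the family's median away from Zfp promoters. The cluster from Zfp955a to Zfp414, also on chromosome 17, had promoter peaks at 3 of 5 genes: Zfp101 with 9.36 and 223 tags, Zfp414 with 7.71 and 136 tags, and Zfp81 with 6.39 and 169 tags. These 3 all lie above the promoter median.

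The other clusters with more than 1 promoter gene had 2 each. In the one from Zfp871 to Zfp563 they were Zfp472 with a fold of 10.43 and Zfp763 with 6.6 and 383 tags. On chromosome 7, Zfp689 and Zfp688 (8.24) belong to the 7 genes from Zfp553 to Zfp689, and Zfp382 and Zfp146 to the 15 genes from Zfp84 to Zfp146. Zfp128 (4.36) and Zfp324 (3.38) belong to the 5 genes from Zfp329 to Zfp446. The cluster from Zfp607b to Zfp850 counted Zfp60 with 4.02 and Zfp607b, which the list enters under another symbol. On chromosome 8, Zfp866 (8.38) and Zfp868 (4.69) were a pair, and Zfp617 (4.75) and Zfp961 (4.25) another. In that last cluster of 4 genes each had a listed peak, as did each of the 4 from Zfp872 to Zfp810 on chromosome 9.

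Measured along mm9, 24 of the 62 promoter peaks had another such peak within 500 kb and formed 10 groups. No such count of neighbours, or of pairs with like folds, was made for the rest of the list. The groups therefore only describe where these peaks lie. The longest group was on chromosome 17, where Zfp472, Zfp763, Zfp81, Zfp101 and Zfp414 had 5 promoter peaks over 663288 bp with folds of 6.39 to 10.43. Zfp40, Zfp213 and Zfp13 followed with 3 peaks over 406248 bp and folds of 3.41 to 9.71. The closest pair was Zfp688 and Zfp689, 27227 bp apart. Other near pairs were Zfp617 and Zfp961 at 42251 bp and Zfp382 and Zfp146 at 47436 bp. In 5 of the 8 pairs the 2 folds differed by at most 1.5 times, and in 3 by more. Among those 3 were Zfp689 with 16.01 beside 8.24 at Zfp688, and Zfp382 with 10.09 beside 3.79 at Zfp146.

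Chromosomes differed in how many of their numbered Zfp genes had a promoter peak. On chromosome 17 there were 14 of 46 (30.4%, interval 17.7% to 45.75%), against 16.7% of all protein-coding genes there. Chromosome 7, with the most of these genes, had 18 of 93 (19.4%, interval 11.9% to 28.85%), against 12.1%. On chromosome 13 there was 1 of 37 (2.70%, interval 0.0684% to 14.2%), against 11.5%, on chromosome 2 there was 1 of 27 (3.70%), against 12.5%, and on chromosome 4 there were 2 of 27 (7.41%), against 13.6%. None of the 21 numbered Zfp genes of chromosome 11 had a promoter peak, with an upper limit of 16.1%, against 15.97% of all genes there. None had any other listed peak either. The same limit then holds for any listed peak, and the 24.7% of all protein-coding genes with one lies above it. That share was not taken for chromosome 11 alone. On chromosome 17 the promoter share of all genes lay outside the interval. On chromosomes 7, 13, 2, 4 and 11 that share lay inside, on chromosomes 7 and 11 just at the edge of the interval. An interval was taken for every chromosome with numbered Zfp genes, and chromosome 17 was the only one where the share lay outside. No allowance was made for the number of chromosomes. Chromosomes were not tested against each other.

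**Figure D4:**
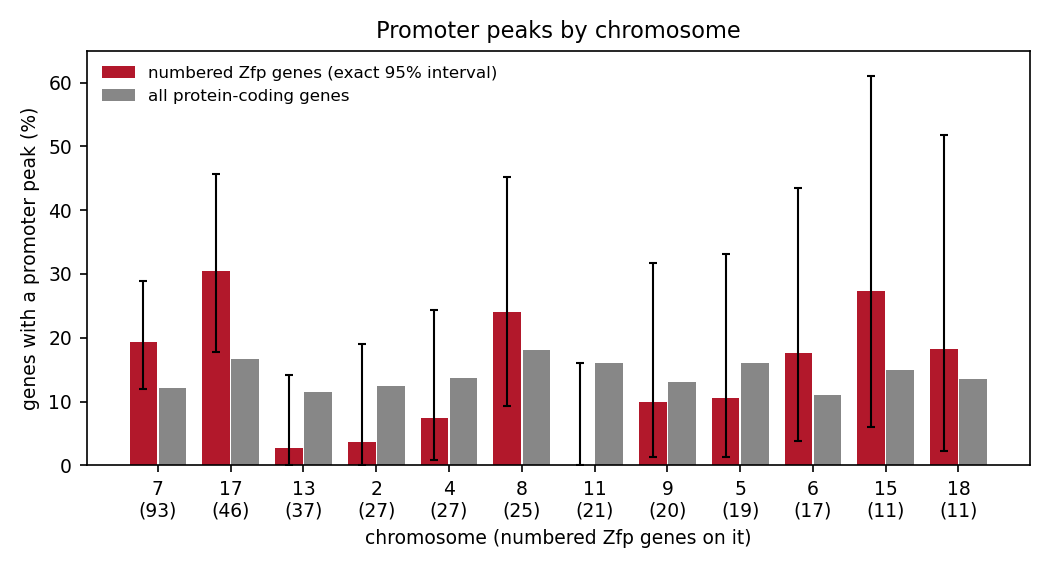
Share of numbered Zfp genes with a promoter peak, with exact 95% intervals, beside the share of all protein-coding genes, for the chromosomes with at least 10 numbered Zfp genes (their number in parentheses). Chromosome 17 stands at 30.4% beside 16.7% and chromosome 13 at 2.70% beside 11.5%.

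The co-repressor machinery that KRAB zinc finger proteins recruit was looked at, with other silencing genes, as a list of 29 genes. Promoter peaks were listed at 10 (34.5%, interval 17.9% to 54.3%), beside 13.1% of all protein-coding genes. The list was chosen with earlier results of these data known, so this contrast is no independent support. A listed peak of any kind was found at 15 of the 29, beside 24.7% of all protein-coding genes, and the same limit holds for this contrast. Trim28 itself, the scaffold that binds the KRAB domain, had 144 tags and a fold of 8.42, in the window from 13609575 to 13609875 of chromosome 7 (mm9). The highest folds were at Uhrf1, which brings DNA methylation to newly copied DNA, with 22.46 and 524 tags, and at Dnmt1, the maintenance DNA methyltransferase, with 13.49 and 186 tags. Tasor, a subunit of the HUSH silencing complex, had 8.0, and Mta2 of the NuRD complex had 7.93. Smarcad1 had 5.72, Pphln1 4.91, Mbd3 4.79 and 4.23, and Resf1 2.88. Setdb1, which writes the silencing mark, Atrx, Daxx, Cbx1 and Cbx3 were among those with no listed peak, as were Hdac1, Hdac2 and Chd4. Uhrf1 alone of the list exceeded the strongest Zfp promoter.

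Genes with other zinc finger names were set beside the family. Zbtb genes, which join fingers to a BTB domain, had promoter peaks at 11 of 41 (26.8%, interval 14.2% to 42.9%) with a median fold of 6.235. Klf genes had them at 5 of 17 (29.4%) and Zc3h genes, with CCCH fingers, at 4 of 16. Zscan genes had 2 of 16 (12.5%) and Zkscan genes, which often sit in the same clusters, 1 of 11 (9.09%). Each of these intervals reaches across the 15.9% of the numbered Zfp genes, and the differences were not tested.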

How the data were processed

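E2F1 ChIP and input chromatin, 1 record each, gave 1 deposited list of peaks, and the input enters the fold and score of each peak but has no values of its own. Reads were aligned with Bowtie2 2.1.0 to mm9, per the submitters' processing notes, and MACS made the peak calls, per the file headers. Neither its version nor its settings are stated in the labels or the list. The same holds for whether replicates were pooled and for how multiply matching reads were handled. The authors deposited a count of tags per peak, a pileup signal (peak height), a ratio (fold over input), a false discovery rate in percent and a score, a negative multiple of the log10 of the p-value. Library depth is unknown.

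The rule for members uses names alone, but it, the lists and the comparisons were chosen with earlier results of these data known. Peaks were counted once by position, and the deposited window of 301 bp was taken as centred on the summit. The distance of a peak past the 3' end was taken as that to the gene end. Of the 127 members, 123 matched the RefSeq table of GRCm38.p6 by symbol and 4 by an older symbol. That table gave gene order only, and no coordinates were converted. Shares have exact Clopper-Pearson 95% intervals and medians have order-statistic intervals, computed with Python 3.11.15, numpy 2.4.6, pandas 2.3.3 and scipy 1.17.1. These cover counting error only. The functions were checked on simulated data. No significance test was run, because 1 list has no replicates.

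Named were the 10 members with the highest promoter fold, the 5 with the highest fold elsewhere, the lowest at a promoter, members with more than 1 peak or a shared promoter, those of the 3 clusters with the most promoter peaks, and co-repressor genes with a promoter peak. Other genes were named after their values were seen. Alternatives changed the promoter distance, the peaks kept, the gene assignment, the name rule, the background, the cluster rule, the fold limit and the motif. Some genes that meet this rule are counted but not reported by name here.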

Additional observations from a re-analysis of the deposited data

How the results depend on the processing

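Of 74 values under alternatives, 56 stayed within the interval of the reported value and 18 did not. With a promoter limit of 5000 bp the promoter share of peaks was 55.3%. With the 2833 peaks of lowest p it was 57.75%, the share of numbered Zfp genes with a promoter peak 10.6%, the median fold 7.67 at promoters and 8.185 elsewhere, and the gene share 9.135% in clusters and 12.2% outside. With the 1416 peaks of highest fold these were 57.9%, 5.79%, 8.595, 10.27, 5.29% and 6.35%. Both settings keep fewer and stronger peaks by construction. In both, the order of promoter and other medians turned with overlapping intervals. Since the cut acts on strength itself, it cannot decide that order. The shorter motif letters stood in 93.9% of the 49 members with a promoter peak and an entry. At a fold of at least 8 the shares were 29.0% at promoters and 18.99% away from Zfp promoters, and at 15 they were 1.61% and 3.797%. The share of genes in clusters was 16.5%, against 14.9% outside, with at most 10 other genes between neighbours, and 15.89% against 15.85% with clusters of at least 5, so that order turned or closed. The other cluster rules tried kept the lower share in clusters. The fold limits, the peaks at the promoter of no gene and a cluster rule by gene name were added after seeing the data. Clusters built from protein sequence were not run. No paired analysis was possible because there is 1 record per group and the results come from no test. Unknown depth and a single list limit every value.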
